A study of Mus musculus with 20 samples.

Results

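The response of RAW264.7 cells to LPS/IFNγ was described over both genotypes of this cell line, as 4 stimulated against 4 unstimulated libraries with genotype as a covariate. RAW264.7 is an established mouse macrophage-like line that divides in culture. Of 56748 genes in the count table, 19569 reached 10 counts summed over the 8 libraries and were tested, and these 8 libraries were among 20 in the whole study. Wildtype and Akr1a1 KO cells gave 2 unstimulated and 2 stimulated libraries each. Stimulation was 50 ng/mL LPS, a bacterial cell wall component, together with 10 ng/mL recombinant mouse IFNγ, the type II interferon, for 48 h. Akr1a1 encodes an aldo-keto reductase that reduces S-nitroso-CoA, and it was disrupted with CRISPR-Cas9. The replicates of a group, lettered A and B, were described as independent clones of the line. Whether a letter marks the same clone in both states was not given.

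LPS is sensed by TLR4 with its co-receptors CD14 and MD-2 and signals through MyD88 and TRIF to NF-κB, AP-1 and IRF3. IFNγ acts through JAK1 and JAK2 on GAS elements and induces further transcription factors such as IRF1, while type I interferon made after LPS acts through STAT2 and IRF9 on ISRE elements. In mouse macrophages the combination is known for inducible nitric oxide synthase, pro-inflammatory cytokines, a switch in carbon metabolism and, in proliferating lines, arrest of the cell cycle.

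Libraries held 11876719 to 44583327 counts. On the first principal component, which held 68.64% of the variance of log2 CPM (counts scaled to library size and TMM factors, per 1e6 counts), unstimulated libraries lay between -116 and -102.9 and stimulated ones between 87.41 and 118, and the second component, with 10.56%, separated the genotypes. The titles of both unstimulated replicate B libraries say stimulated, whereas their treatment field and library name say unstimulated, and on the first component both lay among the unstimulated libraries. Calls of genes and of gene lists were therefore also made without these 2 libraries. The targeted transcript was not lost: Akr1a1 was at 427 and 488 CPM in unstimulated wildtype, 206 and 21.9 CPM in unstimulated KO, 576 and 675 CPM in stimulated wildtype and 370 and 212 CPM in stimulated KO libraries, which are replicates A and B in turn. All 4 KO libraries were below all 4 wildtype libraries. The label of the cells was matched by Adgre1, Csf1r, Cd14, Lyz2 and Spi1, all present in every library. Of markers of other cells, Cd3e of lymphocytes had 0 counts in all 8 libraries, and Pdgfra of fibroblasts was at most 0.067 CPM.

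In the values that follow, 4 CPM values stand in the order wildtype A, wildtype B, KO A and KO B, a change is the log2 fold change of stimulated over unstimulated cells with its standard error (SE), and adjusted p comes from the quasi-likelihood test of edgeR, adjusted over the 19569 genes after Benjamini and Hochberg. A gene is said to have risen or fallen where adjusted p was under 0.05, without a limit on fold. Bulk RNA values are shares of a library, so that fewer cells of a kind and less RNA per cell cannot be told apart.

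Stimulation changed 10158 genes (51.9% of those tested), of which 5134 (26.2%) rose and 5024 (25.7%) fell. The median change over all 19569 genes was -0.003. The 4 stimulated and 4 unstimulated libraries did not overlap at all for 9274 genes (47.4%), and 8755 of these were called. Large changes went up more often: 1964 genes rose and 1350 fell by more than 2 on the log2 scale, and 570 rose and 236 fell by more than 5. Among calls, 3936 lay within 2-fold, and the median SE of a called gene was 0.17. Without the 2 libraries with opposite titles 3830 genes rose and 3662 fell. Because calls were this common, the counts of each gene list below are read against 26.2% rising and 25.7% falling. Among protein-coding genes, the kind that the lists mainly hold, calls were more common. Of these genes 31.9% rose and 31.1% fell, which is the closer share for a list.

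Genes were ranked by change among protein-coding genes with a mean log2 CPM over 3, a call and no overlap between states. The 10 strongest inductions began from 0 or a few counts. Gbp4, an interferon-induced guanylate-binding protein, had 0 counts in all unstimulated libraries and stood at 371, 748, 738 and 851 CPM in stimulated ones, at least 23421-fold higher over a floor of 3 counts for the group. Csf3, the growth factor G-CSF, went from 0, 0.0215, 0.0785 and 0.0348 CPM to 1586, 1723, 1745 and 1446 CPM, a ratio of counts of 55198 (95% Poisson interval 18888 to 267659, counting error only). Iigp1, an immunity-related GTPase, went from 0, 0, 0.0785 and 0 to 344, 450.3, 515 and 854 CPM (ratio 55602, interval 9979 to 2196167). These inductions had a spread of less than 3-fold among stimulated libraries. Il6, Slfn1 and Ccl7 were also among the 10 but rose unevenly, with Il6 at 31.9, 179.6, 163 and 23.6 CPM from 0 (at least 3512-fold), Slfn1, a Schlafen family member, at 132, 14.2, 17.9 and 152 CPM from 0 (at least 2579-fold), and Ccl7 at 576, 2.76, 314 and 409.8 CPM from 0, 0, 0.0785 and 0.0696 CPM. Serpina3f, Slamf7, Stfa3 and Csta3, which encode a serine protease inhibitor, a surface receptor and a pair of stefin-type protease inhibitors, completed the 10, each from 0 counts and at least 2943-, 2553-, 2034- and 1573-fold higher. At the other end stood genes of cell division. Pimreg, a mitotic regulator, fell from 79.9, 94.3, 74.6 and 76.0 to 0.0744, 0, 0.201 and 0 CPM (change -10.16 ± 0.35), and Cenpf, a kinetochore protein, from 267, 284, 249 and 249 to 0.521, 0.507, 0.201 and 0.126 CPM (change -9.59 ± 0.22). Depdc1a, Sapcd2, Ankle1, Neil3, Ccna2, Pbk, Ube2c and Esco2 were the others of the 10 strongest decreases, and all 10 were below 1 CPM in every stimulated library.

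Genes that were close to silent in one state were counted separately. In all, 164 genes had at most 10 counts in every unstimulated library and at least 1 CPM in every stimulated one, and 136 genes showed the reverse. With a limit of 3 counts these were 97 and 37 genes. The limits are in counts, and unstimulated libraries held 11876719 to 44583327 and stimulated ones 14711983 to 19383229 counts. The directions were therefore not held to the same CPM, and their numbers cannot be set against each other. Of the 164, 122 were protein-coding, 29 were long noncoding RNAs and 26 were on any of the gene lists used here. Of the 136 with the reverse pattern, 81 were protein-coding, 28 were long noncoding RNAs and 8 were on a list.

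Promoters of a few responding genes are shown before the gene groups, since letters of the motifs of GAS, ISRE, κB and E2F type can be read in them. Each is the 250 bases before a RefSeq start site in GRCm38.p6, 5′ to 3′ on the strand of the gene, with matches to the motifs named for that gene, on either strand, in capitals. Irf1 (chr11:53769764-53770013, + strand, 1 of 2 listed starts), which encodes the interferon-induced activator IRF1, is shown for its GAS match TTCCCCGAA, 90 to 82 bases before the start, and for κB matches (GGGNNNNNCC), 1 pair of which overlaps. Cxcl10 (chr5:92348890-92349139, - strand), a chemokine, is shown for an ISRE core (GAAANNGAA) 213 to 205 bases before the start and κB matches, 1 pair overlapping. Gbp2 (chr3:142620413-142620662, + strand), chosen after its values were seen, is shown for the ISRE core on the reverse strand, 58 to 50 bases before the start. Mcm5 (chr8:75109259-75109508, + strand), a subunit of the replicative helicase, is shown for a pair of overlapping E2F matches (TTTNNCGC) between 153 and 142 bases before the start and CCAAT boxes. Ccnb1 (chr13:100786487-100786736, - strand), which encodes cyclin B1, is shown for its CCAAT boxes, 99 to 95 and 67 to 63 bases before the start.
Irf1: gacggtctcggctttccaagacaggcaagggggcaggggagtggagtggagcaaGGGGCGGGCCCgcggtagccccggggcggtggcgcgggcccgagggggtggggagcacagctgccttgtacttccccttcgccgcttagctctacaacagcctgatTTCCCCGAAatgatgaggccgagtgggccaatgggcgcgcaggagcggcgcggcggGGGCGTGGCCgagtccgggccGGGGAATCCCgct
Cxcl10: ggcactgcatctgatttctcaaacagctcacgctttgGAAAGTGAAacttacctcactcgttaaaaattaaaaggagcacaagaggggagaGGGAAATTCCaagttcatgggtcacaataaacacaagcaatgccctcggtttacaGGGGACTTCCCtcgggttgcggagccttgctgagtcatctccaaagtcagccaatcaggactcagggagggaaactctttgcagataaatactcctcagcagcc
Gbp2: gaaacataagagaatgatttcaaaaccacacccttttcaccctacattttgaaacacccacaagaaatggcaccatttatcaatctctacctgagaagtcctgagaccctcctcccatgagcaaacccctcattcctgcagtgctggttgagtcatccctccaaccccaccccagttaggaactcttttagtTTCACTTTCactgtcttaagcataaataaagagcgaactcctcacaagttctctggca
Mcm5: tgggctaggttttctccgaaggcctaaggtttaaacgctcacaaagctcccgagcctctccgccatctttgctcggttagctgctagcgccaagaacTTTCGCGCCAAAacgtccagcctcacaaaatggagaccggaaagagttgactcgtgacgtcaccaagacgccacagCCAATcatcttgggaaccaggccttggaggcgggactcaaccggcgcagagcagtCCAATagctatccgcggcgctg
Ccnb1: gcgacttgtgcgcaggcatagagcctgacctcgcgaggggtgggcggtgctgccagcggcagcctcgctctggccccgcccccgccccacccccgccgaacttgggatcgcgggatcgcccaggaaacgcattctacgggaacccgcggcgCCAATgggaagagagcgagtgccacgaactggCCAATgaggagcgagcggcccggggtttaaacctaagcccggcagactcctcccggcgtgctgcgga

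Motif shares were counted over 1 promoter a gene for the 11661 tested genes (59.6%) with an entry. The ISRE core was in 6.41% of these promoters, in 7.67% of those of genes that rose and in 5.25% of those of genes that fell, against 7.13% of all 32851 promoters listed. All 10 interferon-induced GTPase genes with an entry held it, and 12 of 25 antiviral genes, against 1 of 33 mitosis genes. The GAS motif (TTCNNNGAA) was in 5.97% of promoters of tested genes and in 6.15% and 5.82% of those that rose and fell (7.02% of all listed), and in 6 of the 10 GTPase promoters. The κB letters were so permissive that 58.6% of tested genes held them (45.8% of all listed), with 60.5% and 60.0% among those that rose and fell. AP-1 (TGANTCA) was in 4.85% of promoters, 6.23% of those that rose and 3.62% of those that fell (6.75% of all listed). E2F letters were in 6.88%, with 5.87% among genes that rose and 9.33% among those that fell (4.28% of all listed), and 8 of 32 replication promoters. CCAAT was in 36.1%, with 33.7% and 41.2% (33.8% of all listed), and in 26 of 33 mitosis, 18 of 32 replication and 15 of 17 sterol synthesis promoters. The CHR letters (TTTGAA) were in 11.4% of tested promoters (16.0% of all listed) and 12 of 33 mitosis promoters, and the printed Ccnb1 window held none. In the 100 bases before the start the ISRE core was in 2.19% of promoters of tested genes, 3.21% of those that rose and 1.37% of those that fell, and CCAAT in 22.3%, 19.9% and 27.2%. Matches are letters in a window, and no binding was measured.

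**Figure D1:**
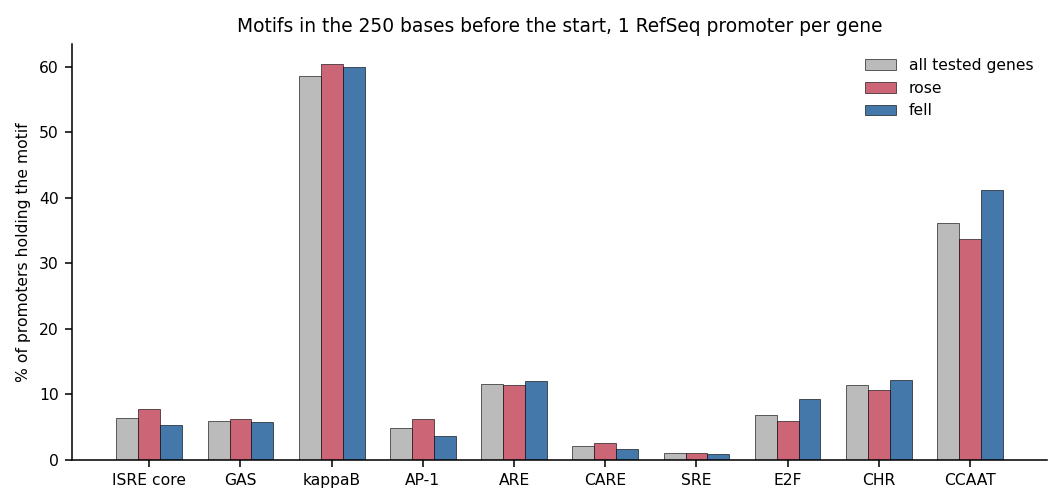
Bars give the percentage of promoters (250 bases before the start, 1 a gene) that held each motif on either strand, for all 11661 tested genes with a promoter, for those that rose and for those that fell. ISRE core and AP-1 letters were more frequent among genes that rose, E2F and CCAAT letters among genes that fell, and κB letters stood near 60% in both.

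The LPS receptor pathway rose as a group. Of 34 tested genes of TLR4 and NF-κB signalling, 28 rose and 4 fell, with a median change of 1.13. Tlr4 itself moved little, 103, 85.7, 127 and 149 to 133, 109, 163 and 190.1 CPM (change 0.36 ± 0.11), and lost its call without unstimulated wildtype B (adjusted p = 0.063), unstimulated KO A (0.067), both libraries with opposite titles (0.091) or a genotype covariate (0.18). Its partners rose more: Cd14, the LPS co-receptor, from 549.5, 552, 462 and 517 to 2486, 3118, 1958 and 2232 CPM (change 2.22 ± 0.13, adjusted p = 6.6e-07) and Ly96, which encodes MD-2, from 6.25, 5.27, 6.36 and 7.58 to 17.7, 25.6, 26.9 and 32.9 CPM (change 2.01 ± 0.17). Ticam1, the adaptor TRIF, rose by 2.45 ± 0.18, and Nfkb1 rose by 1.02 ± 0.13. Inhibitors of the pathway were among the highest changes on the list. Nfkbia, which encodes IκBα, went from 60.1, 96.5, 59.1 and 70.2 to 388, 586, 476 and 503 CPM (change 2.78 ± 0.19), and Zc3h12a, the RNase regnase-1, from 8.28, 12.5, 9.11 and 7.58 to 159, 199, 139 and 126 CPM (change 4.04 ± 0.15). Map3k7, the kinase TAK1, fell from 90.1, 109, 96.6 and 98.1 to 61.6, 59.5, 60.4 and 64.0 CPM, and Irak1, Tab1 and Ikbkb, other kinases and adaptors on the way to NF-κB, fell by less than 2-fold. Unstimulated and stimulated libraries did not overlap for 31 of the 34 genes.

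Interferon signalling rose likewise, with 19 of 23 genes up and 1 down (median 1.89). Stat2, a component of the type I interferon complex, went from 35.2, 35.0, 40.9 and 34.0 to 314, 232, 249 and 438 CPM (change 3.08 ± 0.19, adjusted p = 9.9e-07). Irf1 went from 5.16, 6.77, 7.23 and 4.73 to 191, 239.7, 187 and 281 CPM (change 5.23 ± 0.21, adjusted p = 6.2e-08), and Irf7, the factor that amplifies type I interferon, from 3.78, 20.0, 28.6 and 8.07 to 1006, 667, 538 and 921 CPM (change 5.71 ± 0.59). Batf2, a bZIP factor induced by IFNγ, rose most, from 0.363, 0.0860, 1.02 and 0.870 to 144, 67.0, 77.4 and 127 CPM (change 7.73 ± 0.53). The only decrease was in Ifngr1, the ligand-binding chain of the IFNγ receptor, from 52.3, 48.9, 40.1 and 42.1 to 27.3, 36.1, 26.1 and 26.1 CPM (change -0.66 ± 0.11), while Jak2 rose by 1.53 ± 0.14. Ciita, the activator of MHC class II genes, stayed below 1 CPM throughout (0.436, 0.0430, 0 and 0.139 to 0, 0.507, 0.670 and 0.188 CPM, adjusted p = 0.36). The states did not overlap for 20 of the 23 genes.

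Feedback inhibitors were nearly all higher, 22 of 24 with a median of 3.52. Socs3, a JAK inhibitor, went from 6.10, 11.5, 2.75 and 4.59 to 833, 862, 529.6 and 509 CPM (change 6.80 ± 0.26), and Socs1 from 0.0726, 0.280, 0.393 and 0.174 to 8.48, 10.5, 10.6 and 14.2 CPM (change 5.50 ± 0.35). The states did not overlap for 22 of these genes. Dusp1 and Dusp5, phosphatases of MAP kinases, rose by 5.22 ± 0.28 and 7.12 ± 0.31, and Tnfaip3, the ubiquitin editor A20, by 2.46 ± 0.11. Cd274, the ligand PD-L1, was at 6.39, 7.59, 7.07 and 5.25 CPM before and 318, 479, 638 and 813 CPM after stimulation (change 6.35 ± 0.29). The anti-inflammatory cytokine Il10 had 0 counts before and 8.03, 0.619, 17.9 and 9.79 CPM after it, at least 296-fold higher. All 24 tested genes of the cytokine list rose, with a median of 5.02. It was 4.38 with genes of at most 3 counts over all unstimulated libraries set at their bound. Tnf went from 48.3, 61.4, 32.0 and 30.3 to 1855, 2363, 1009 and 1411 CPM (change 5.27 ± 0.17, adjusted p = 2.7e-08), with wildtype libraries above KO libraries in both states. Il1b was at most 0.0785 CPM in unstimulated libraries and at 35.9, 359.5, 379 and 81.6 CPM in stimulated ones (change 12.19 ± 1.25), a spread of about 10-fold among the latter. Il1rn, the antagonist of the IL-1 receptor, went from 34.9, 10.5, 6.83 and 3.79 to 4599, 2505, 2358 and 1527 CPM (change 7.90 ± 0.55). Il12b, the p40 subunit, had 0 counts before and 1.04, 29.1, 46.6 and 9.04 CPM after stimulation (at least 749-fold). The smallest increase was in Tgfb1, from 143, 139.8, 129 and 133 to 224, 231, 152 and 161 CPM. The list took 0.0349% ± 0.0027 (SD, n = 4) of counts before and 0.703% ± 0.150 after stimulation, and without the 2 libraries with opposite titles 21 of its genes were called.

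Of 18 tested chemokine genes, 14 rose and 1 fell (median 5.80, or 5.63 at the bound). Ccl3 and Ccl4, the macrophage inflammatory proteins, went from 49.1, 55.6, 69.3 and 79.8 to 4004, 6663, 4305 and 3788 CPM and from 45.6, 52.2, 55.1 and 54.4 to 1647, 2201, 1695 and 1353 CPM. Cxcl2, a neutrophil attractant, went from 3.56, 3.03, 5.11 and 6.78 to 4817, 5146, 4403 and 4892 CPM (change 10.07 ± 0.29), with no library apart from the others. Ccl2, which recruits monocytes, was at 2566, 105, 2372 and 2853 CPM in stimulated libraries, with wildtype B more than 20-fold under the others, and at 0.145, 0, 0.943 and 6.85 CPM in unstimulated ones (change 10.44 ± 1.38). Ccl5 rose by 9.46 ± 0.79. Cxcl9 and Cxcl10, ligands of CXCR3 and widely used markers of IFNγ action, stayed low. Cxcl10 was at 0.944, 1.35, 0.236 and 0.313 CPM before and 1.49, 1.91, 1.21 and 2.70 CPM after stimulation (change 1.51 ± 0.52, adjusted p = 0.033), the states overlapped, and the call was lost without unstimulated wildtype A (adjusted p = 0.055), unstimulated KO A (0.097), unstimulated KO B (0.12), stimulated KO B (0.056), both libraries with opposite titles (0.082) or a genotype covariate (0.069). Cxcl9 had 0 counts before and at most 0.377 CPM after stimulation (adjusted p = 0.033), and its call was lost with DESeq2 (0.09) and without unstimulated wildtype B (0.054), KO A (0.054), KO B (0.077) or both libraries with opposite titles (0.15). Cxcl14 fell from 55.4, 20.5, 41.5 and 58.3 to 0.149, 0.0563, 0.871 and 1.57 CPM (change -6.18 ± 0.56). Together the chemokine genes took 0.0315% ± 0.0068 of counts before and 1.44% ± 0.07 after stimulation (SD, n = 4). Of 12 receptors of chemoattractants 9 rose and 2 fell (median 4.87, or 4.63 at the bound). Fpr2, a formyl peptide receptor, rose from 0 counts to 6.32, 3.38, 4.62 and 5.46 CPM (at least 164-fold), whereas Cxcr4 fell from 28.2, 23.7, 25.3 and 30.6 to 0.595, 0.901, 1.34 and 0.377 CPM (change -5.06 ± 0.30).

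The interferon-induced GTPases, guanylate-binding proteins and immunity-related GTPases that act on vacuoles of intracellular pathogens, responded with the highest median of any list. All 19 rose, with a median of 9.03 (8.48 at the bound), from 0.00393% ± 0.00148 to 0.358% ± 0.106 of counts (SD, n = 4). Gbp2 went from 0, 0.0215, 0.236 and 0.139 to 279, 300.3, 335 and 518 CPM (change 11.99 ± 0.34) and Gbp5 from 0, 0.0430, 0 and 0 to 128, 95.4, 102 and 206 CPM (ratio 6731, interval 1863 to 55577). Irgm1, a regulatory member, had a base level and rose from 17.3, 39.0, 37.5 and 24.3 to 561, 497, 505 and 756 CPM (change 4.29 ± 0.28), and Gbp8 rose least (3.69 ± 0.59). Summed over the list, the 4 stimulated libraries held 2857, 3284, 3743 and 5465 CPM, in the usual order. Members such as Tgtp1 and Tgtp2 are nearly identical in sequence, and how their reads were divided is uncertain.

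All 31 tested antiviral interferon-stimulated genes rose (median 4.48), and 29 did so without the 2 libraries with opposite titles. Zbp1, a sensor of Z-form nucleic acids, led them, from 0.0726, 0.860, 1.18 and 0.522 to 262, 262, 204 and 294 CPM (change 8.54 ± 0.36). Rsad2, the antiviral enzyme viperin, was at 0.508, 2.54, 5.81 and 1.64 CPM before and 397, 289.9, 716 and 1667 CPM after stimulation, highest in KO B. Ifit1 and Isg15 rose by 7.38 ± 0.44 and 6.91 ± 0.41. Ifitm3 rose least, 410.1, 460.3, 524 and 467 to 958, 562, 521 and 630.1 CPM, and its call was lost in 5 of 8 fits that left out 1 library (adjusted p up to 0.13), without both libraries with opposite titles (0.19) and with the replicate letter shared by both genotypes as a block (0.051).

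Antigen presentation through MHC class I rose, with 18 of 22 genes up and 2 down (median 2.23). The light chain of the complex, B2m, went from 244, 409, 392 and 288 to 1712, 1964, 1209 and 1930 CPM (change 2.35 ± 0.22), H2-K1 from 40.3, 57.4, 44.6 and 40.5 to 211, 329, 160.3 and 304 CPM, and the peptide transporter Tap1 from 30.8, 46.1, 41.2 and 33.5 to 491, 549, 411 and 554 CPM (change 3.72 ± 0.17). The immunoproteasome subunits Psmb8 and Psmb9 rose by 1.09 ± 0.14 and 3.01 ± 0.18. Pdia3, the disulfide isomerase of the loading complex, fell from 693, 739, 1486 and 1469 to 534, 622, 479 and 502 CPM and was higher in unstimulated KO than in unstimulated wildtype cells. Of 9 tested MHC class II genes 4 rose and 1 fell, 3 fell with the replicate letter within genotype as a block, and 1 rose and 1 fell without the 2 libraries with opposite titles. The classical chains H2-Aa and H2-Ab1 had at most 0.0628 CPM in any library and were not tested. Cd74, the invariant chain, rose from 264, 248, 321 and 278 to 629.8, 1017, 428 and 403 CPM (change 1.08 ± 0.25), a call lost without the 2 libraries with opposite titles (adjusted p = 0.051). Of 19 co-stimulatory and adhesion genes 15 rose and 2 fell (median 2.36). Cd40 went from 1.09, 2.37, 1.18 and 1.29 to 130.3, 242, 189 and 246 CPM (change 6.97 ± 0.32), Cd86 from 0, 0.258, 0.157 and 0.487 to 11.4, 36.9, 42.3 and 22.04 CPM, Icam1 rose by 2.36 ± 0.12, and Cd69, an early activation antigen, appeared from 0 at 8.40, 7.99, 6.57 and 5.08 CPM (at least 237-fold). The common leukocyte antigen Ptprc was at 202, 192, 215 and 229 CPM before and 357, 229, 238 and 267 CPM after stimulation (adjusted p = 0.054, or 0.033 with the replicate letter within genotype as a block, 0.019 with DESeq2, 0.024 without stimulated wildtype B and 0.04 without stimulated KO A). Ptprc was also called with group means, the size factors of DESeq2, a stricter or no count filter and protein-coding genes alone. Itga4, the α4 integrin subunit, took the other course, falling from 2748, 2820, 2252 and 1798 to 147, 103, 79.1 and 83.1 CPM (change -4.56 ± 0.16).

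**Figure D2:**
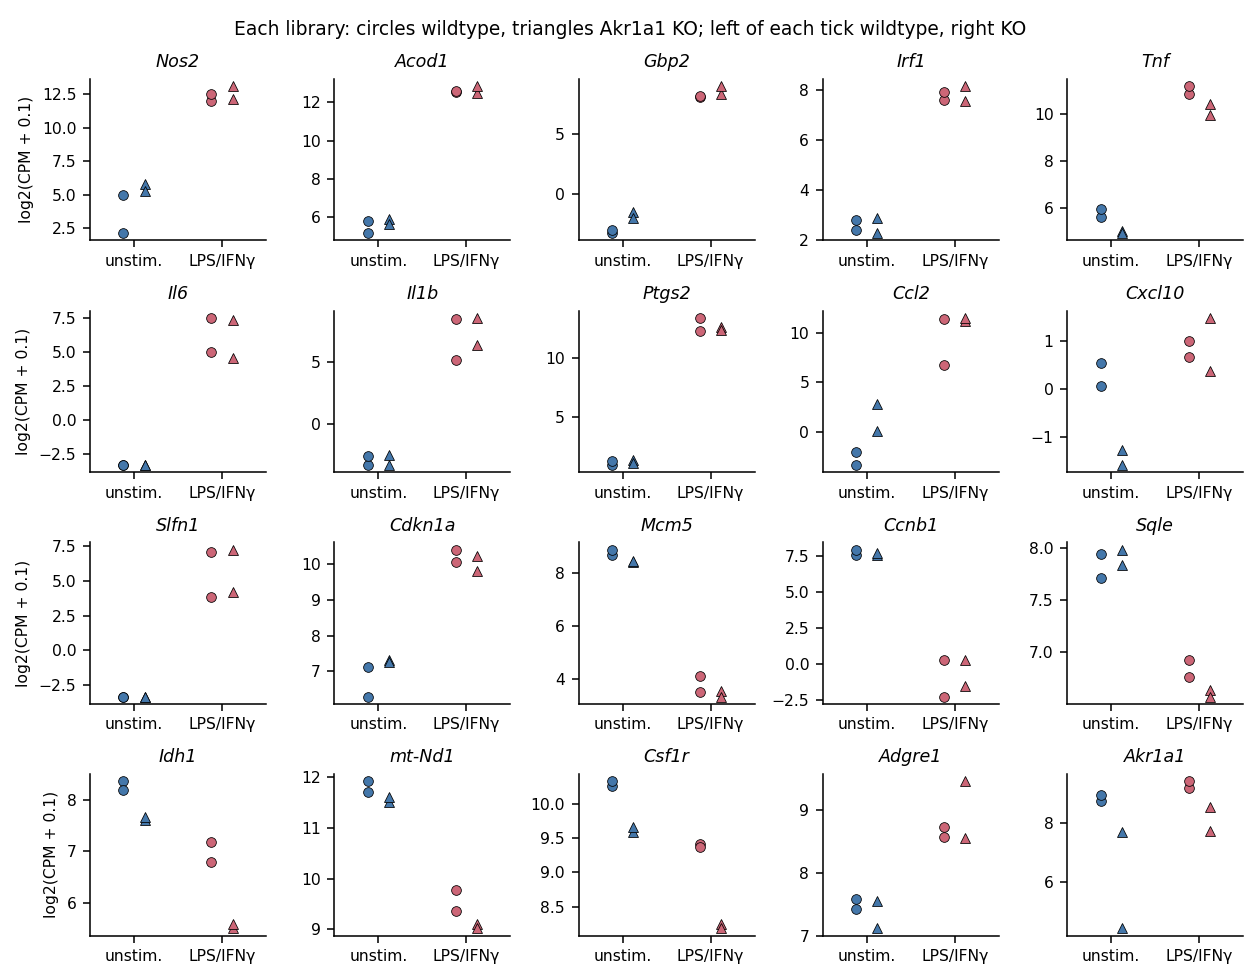
Each panel plots log2(CPM + 0.1) of 1 gene in the 8 libraries, unstimulated at the left in blue and LPS/IFNγ at the right in red, with circles for wildtype and triangles for Akr1a1 KO. Nos2, Acod1, Gbp2, Irf1 and Tnf separate fully, Il6, Il1b, Slfn1 and Ccl2 spread widely among stimulated libraries, Cxcl10 overlaps, and Mcm5 and Ccnb1 fall in all.

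Nos2, the inducible nitric oxide synthase, was at 4.21, 30.7, 54.7 and 38.1 CPM before and 4155, 5899, 4445 and 8806 CPM after stimulation (change 7.64 ± 0.65, adjusted p = 7.4e-06). The list of nitric oxide and arginine metabolism split, with 7 of 14 tested genes up, Nos2 included, and 6 down. Odc1, the first enzyme of polyamine synthesis, rose from 587, 473, 461 and 607 to 13109, 13327, 8698 and 11026 CPM (change 4.42 ± 0.19). Gch1, which makes the cofactor tetrahydrobiopterin, rose by 1.77 ± 0.24, while Qdpr, which recycles it, fell by 2.00 ± 0.11 on the log2 scale. Arg1 stayed at or below 1.94 CPM, and Arg2 rose from 1.60, 0.795, 0.943 and 1.01 to 4.68, 7.15, 4.56 and 6.78 CPM. Ass1, which regenerates arginine from citrulline, had at most 0.215 CPM in any library. Oat, ornithine aminotransferase, fell from 163, 173, 211 and 212 to 45.4, 54.9, 44.0 and 35.4 CPM. Of 7 subunits of the phagocyte oxidase, 4 rose and 1 fell, and Ncf1 changed by 0.08 ± 0.09 (adjusted p = 0.53).

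Prostanoid genes showed opposite changes of the cyclooxygenases. Ptgs2, the inducible form, was at 1.82, 2.30, 2.44 and 2.05 CPM before and 4851, 10479, 6087 and 5045 CPM after stimulation (change 11.57 ± 0.37, adjusted p = 2.2e-08), and Ptges, the inducible prostaglandin E synthase, rose by 4.54 ± 0.49. Ptgs1, the constitutive form, fell from 99.9, 103, 17.5 and 79.7 to 9.07, 9.29, 1.27 and 4.65 CPM (change -3.72 ± 0.48). In all, 4 of 16 tested genes rose and 4 fell. Of 15 genes of inflammasomes and inflammatory cell death 11 rose and 1 fell (10 and 0 without the 2 libraries with opposite titles). Casp4, the sensor of intracellular LPS, went from 7.55, 10.8, 10.1 and 8.77 to 171, 139, 220.4 and 259.7 CPM (change 4.36 ± 0.18), Casp1 rose by 2.52 ± 0.11, Nlrp3 by 2.30 ± 0.24, and Mlkl, the effector of necroptosis, by 4.37 ± 0.19. Pycard, the adaptor ASC, stayed under 1 CPM in every library.

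Iron genes moved in both directions. Fth1, the ferritin heavy chain, was at 3182, 3495, 3824 and 4086 CPM before and 24576, 23422, 16842 and 19709 CPM after stimulation (change 2.53 ± 0.18), and Ftl1, the light chain, rose by 1.26 ± 0.13. Lcn2, which sequesters bacterial siderophores, went from 0, 0.0645, 0.157 and 0.870 to 228, 144, 320.0 and 280.5 CPM (change 9.67 ± 0.47), and Slc11a1, the phagosomal metal transporter NRAMP1, from 66.3, 49.8, 44.6 and 52.8 to 634, 491, 379 and 436 CPM. Slc40a1, the iron exporter, fell from 96.0, 42.0, 61.0 and 107 to 33.5, 3.77, 26.4 and 36.1 CPM, and the call was lost without unstimulated wildtype A (adjusted p = 0.074), unstimulated KO B (0.073), stimulated KO A (0.071) or both libraries with opposite titles (0.082). Tfrc, the transferrin receptor, rose by 0.72 ± 0.12. The list of 17 tested genes had 9 up and 6 down (10 and 3 without the 2 libraries with opposite titles) and went from 0.636% ± 0.040 to 2.41% ± 0.28 of counts (SD, n = 4). Reads of ferritin genes may be shared with pseudogenes, which the counting could split.

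**Figure D3:**
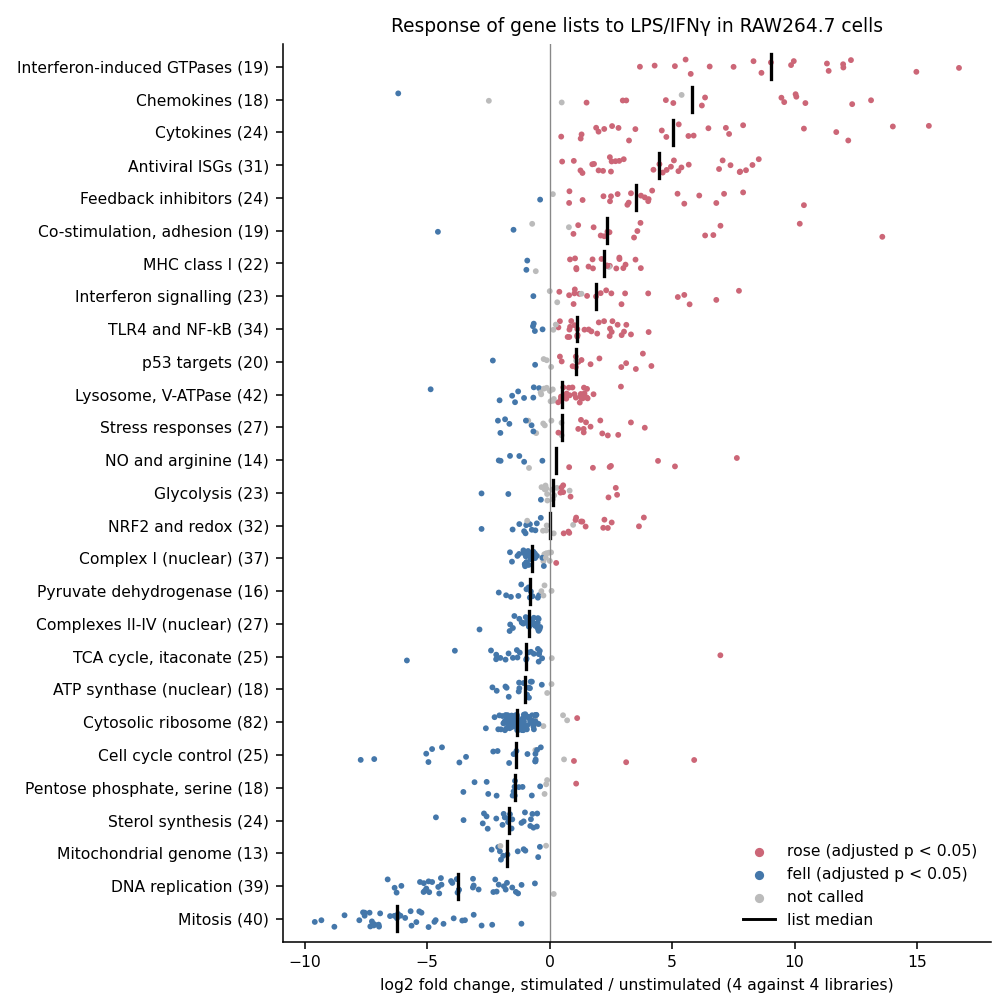
Each point is a tested gene of a list (number tested in brackets), placed by its log2 fold change and coloured by call, and the black bar is the list median. Interferon-induced GTPases (median 9.03), chemokines and cytokines lie far to the right, DNA replication (-3.76) and mitosis (-6.23) far to the left, and mitochondrial, ribosomal and sterol lists between 0 and -2.

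Glycolytic genes moved at single steps and not as a group. Of 23 glycolytic genes 8 rose, 3 fell and 12 were not called, with a median of 0.13, and the list held 2.39% ± 0.07 of counts before and 2.40% ± 0.29 after stimulation (SD, n = 4). Slc2a1, the glucose transporter GLUT1, went from 336, 308, 368 and 367 to 1426, 2896, 2221 and 2748 CPM (change 2.75 ± 0.21), Hk3, a hexokinase, from 99.4, 85.8, 173 and 174 to 997, 675, 664 and 959 CPM (change 2.70 ± 0.23), and Pfkfb3, which makes the activator fructose 2,6-bisphosphate, rose by 2.40 ± 0.12. Pfkm, the muscle form of phosphofructokinase, fell from 52.7, 48.1, 51.0 and 50.7 to 8.18, 7.09, 7.17 and 7.03 CPM (change -2.78 ± 0.11), and the lactate transporter Slc16a1 fell by 1.69 ± 0.20 on the log2 scale. Ldha was at 2664, 3224, 3005 and 3175 CPM before and 2160, 2972, 2236 and 2236 CPM after stimulation (change -0.33 ± 0.14, adjusted p = 0.078, or 0.036 with the replicate letter within genotype as a block, 0.05 without unstimulated wildtype A and 0.011 without stimulated wildtype B), and Pkm changed by 0.19 ± 0.14 (adjusted p = 0.29). Ldha was also called with no count filter. Gapdh, which has many near-identical pseudogenes, was uneven at 41.9, 221, 36.6 and 43.3 CPM before and 57.5, 161, 232 and 72.8 CPM after stimulation and is uncertain.

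The TCA cycle fell around a single strong increase. Of 25 tested genes, 23 fell and 1 rose (median -0.96). The riser was Acod1, also called Irg1, which makes itaconate from cis-aconitate, at 35.8, 54.9, 59.9 and 50.1 CPM before and 5844, 6217, 5729 and 7297 CPM after stimulation (change 6.97 ± 0.21, adjusted p = 1.8e-08). Idh2, mitochondrial isocitrate dehydrogenase, fell from 171, 147, 156 and 138 to 15.6, 9.34, 9.04 and 8.47 CPM (change -3.87 ± 0.17), and Idh1, its cytosolic counterpart, from 328, 291, 196 and 203 to 145, 111, 45.6 and 48.1 CPM. Citrate synthase, Cs, went from 364, 381, 445 and 415 to 187, 167, 174 and 159.8 CPM (change -1.22 ± 0.10), fumarase, Fh1, from 158, 157, 155 and 148 to 36.7, 38.6, 36.5 and 41.2 CPM, and pyruvate carboxylase, Pcx, from 41.8, 36.6, 64.3 and 42.9 to 9.52, 7.94, 10.4 and 7.03 CPM. Of 16 genes of the pyruvate dehydrogenase complex, its regulators and pyruvate carriers, 12 fell and none rose (median -0.79). Pdha1, the E1α subunit, fell by 1.16 ± 0.13 on the log2 scale and the phosphatase Pdp2 by 2.08 ± 0.18, and the inhibitory kinase Pdk1 also fell, from 193, 194, 217 and 206 to 107, 106, 112 and 121 CPM. Lias, lipoic acid synthetase, was at 33.9, 33.8, 31.0 and 34.7 CPM before and 35.0, 33.7, 36.2 and 36.0 CPM after stimulation (adjusted p = 0.51).

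Transcripts of the respiratory chain were lower in every complex. Of nuclear genes, 28 of 37 for complex I fell and 1 rose (median -0.73), all 27 for complexes II, III and IV and cytochrome c fell (median -0.84), and 16 of 18 for the ATP synthase and its factors fell (median -0.99). Ndufs1, of complex I, went from 261, 261, 181 and 229.9 to 162, 133, 94.0 and 103 CPM (change -0.94 ± 0.11). Sdha, of complex II, fell from 318, 301, 329 and 312 to 130.0, 98.5, 102 and 115 CPM (change -1.50 ± 0.11), Uqcrc1, of complex III, by 0.97 ± 0.10 and Cox7c, of complex IV, by 1.14 ± 0.11 on the log2 scale. Sdhb fell by only 0.48 ± 0.10. Atp5a1, of the ATP synthase, went from 1940, 1907, 1842 and 1875 to 1029, 889, 862 and 842 CPM, and Atpif1, which encodes the inhibitor of its reverse reaction, fell by 2.34 ± 0.18. The complex I riser was Ndufa7, whose call was lost without either wildtype unstimulated library (adjusted p = 0.06 each) and without both libraries with opposite titles (0.095). Without the 2 libraries with opposite titles these lists had 21, 25 and 15 genes that fell. The 13 protein-coding genes of the mitochondrial genome fell in 11 cases (median -1.72), and went from 2.58% ± 0.19 to 1.25% ± 0.21 of counts (SD, n = 4). mt-Nd1 went from 3346, 3882, 2919 and 3137 to 879, 661, 549 and 519 CPM (change -2.37 ± 0.14), whereas mt-Co1 was at 10242, 5537, 10080 and 9643 CPM before and 10390, 7526, 6359 and 7824 CPM after stimulation (adjusted p = 0.63), with unstimulated wildtype B apart from the others. Mitochondrial tRNAs fell in 8 of 13 cases.

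The pentose phosphate pathway and serine metabolism fell in 14 of 18 genes (median -1.42). Phgdh, the first enzyme of serine synthesis, went from 131, 266, 301 and 312 to 19.3, 22.3, 22.6 and 21.7 CPM (change -3.52 ± 0.23), and Shmt2, which passes its one-carbon unit to folate in mitochondria, from 316, 400.5, 366 and 409 to 47.3, 50.1, 42.6 and 38.8 CPM (change -3.07 ± 0.13). G6pdx, the entry enzyme of the pentose phosphate pathway, was the only riser, from 217, 220.0, 206 and 224 to 499.8, 471, 451 and 417 CPM (change 1.08 ± 0.09). Sterol synthesis fell in all 24 tested genes (median -1.65), also without the 2 libraries with opposite titles. Fdps, farnesyl diphosphate synthase, fell from 7.55, 9.78, 11.1 and 9.81 to 0.967, 1.07, 0.670 and 0.628 CPM (change -3.51 ± 0.26), Sqle, squalene epoxidase, fell by 1.15 ± 0.11, and Dhcr7, a late reductase of the pathway, fell by 2.68 ± 0.24. Among 15 liver X receptor genes, their targets and efflux genes, 4 rose and 9 fell. Scd1 and Scd2, stearoyl-CoA desaturases, fell by 5.28 ± 0.60 and 3.43 ± 0.29 on the log2 scale, Abca1 fell by 1.21 ± 0.28, and Ch25h, which makes 25-hydroxycholesterol, rose from 0.363, 0.344, 0.0785 and 0.0696 to 3.72, 3.27, 1.61 and 1.82 CPM.

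Redox genes moved both ways. Of 32 genes of the NRF2 response and thiol systems, 14 rose and 12 fell (median 0.02). Hmox1, heme oxygenase 1, went from 127, 107, 142 and 136 to 2036, 1161, 2131 and 2074 CPM (change 3.85 ± 0.19), Sqstm1, the autophagy adaptor p62, rose by 3.65 ± 0.16, the cystine importer Slc7a11 by 2.37 ± 0.37, and the peroxiredoxins Prdx1 and Prdx5 by 2.24 ± 0.27 and 2.53 ± 0.23. Gsr, glutathione reductase, and Sod1 fell by 1.04 ± 0.10 and 1.24 ± 0.09, and Gstm1, a glutathione transferase, went from 21.6, 10.5, 12.9 and 8.24 to 3.94, 0.394, 2.08 and 1.32 CPM. Nqo1, a widely used NRF2 target, was at most 0.536 CPM in any library. Among 15 aldo-keto reductases and enzymes that reduce S-nitrosothiols or related bonds, 1 rose and 7 fell, and 3 rose with the replicate letter within genotype as a block. Glrx, glutaredoxin 1, rose from 31.8, 36.4, 35.8 and 38.2 to 416, 368, 254 and 331 CPM (change 3.25 ± 0.15), and Akr1b3, aldose reductase, fell from 456, 362, 359 and 413 to 120.0, 129.9, 103 and 77.0 CPM. Adh5, S-nitrosoglutathione reductase, changed by -0.26 ± 0.10 (adjusted p = 0.052), its states did not overlap, and it was called with group means (adjusted p = 0.041), among protein-coding genes alone (0.045), with no genotype covariate (0.047) and without stimulated wildtype A (0.048). Akr1a1 itself changed by 0.90 ± 0.54 (adjusted p = 0.19), and with the replicate letter within genotype as a block adjusted p was 0.024. It was also called with no count filter. In wildtype cells its change was 0.45 (adjusted p = 0.68) and in KO cells 1.36 (adjusted p = 0.21). The difference, 0.91 ± 1.09, was not called (adjusted p = 0.96), and the unstimulated KO libraries lay far apart at 206 and 21.9 CPM. Apex1, a DNA repair and redox protein, fell furthest of these 15 (-3.18 ± 0.14).

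Stress responses of the integrated and unfolded protein type rose in 13 and fell in 7 of 27 genes. Atf3 went from 67.2, 43.5, 77.3 and 54.2 to 939.6, 578, 1042 and 1038 CPM (change 3.88 ± 0.22), Atf4, the central factor of the integrated stress response, rose by 1.48 ± 0.11, Ddit3, or CHOP, by 2.80 ± 0.23, and Ppp1r15a, which restores translation, by 3.32 ± 0.14. The chaperones of the endoplasmic reticulum took another course. Hsp90b1 was at 659, 965, 1927 and 1933 CPM before and 302, 428, 259 and 269.5 CPM after stimulation (change -2.01 ± 0.34), with both unstimulated KO libraries well above the others, and Hspa5 was at 815, 1064, 2520 and 2439 CPM before and 852, 1554, 948 and 860.5 CPM after stimulation. Hspa5 was not called (adjusted p = 0.23), but it was with group means (0.04), with no count filter (0.00025) and without stimulated wildtype B (0.022), where its change was -0.88. Slc7a5, an importer of large amino acids, fell by 2.11 ± 0.15.

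Ribosomal protein genes fell together. Genes named Rpl or Rps numbered 93, of which 79 fell and 5 rose (70 and 3 without the 2 libraries with opposite titles). Of the 5, Rps6ka2 and Rps6kc1 are kinase genes, Rps19bp1 and Rpl7l1 are not ribosomal subunits either, and Rpl29 was at 0.872, 0.946, 0.864 and 0.835 CPM before and 2.01, 1.24, 2.28 and 2.32 CPM after stimulation, with a call that was lost without the 2 libraries with opposite titles (adjusted p = 0.078). Without such namesakes, a choice made after the values were seen, 75 of 82 fell and 1 rose (median -1.32), 2 rose with the replicate letter within genotype as a block, and their share of counts went from 3.65% ± 0.15 to 1.28% ± 0.17 (SD, n = 4). Rps21 went from 229, 244, 223 and 217 to 43.9, 37.9, 43.5 and 25.4 CPM (change -2.60 ± 0.16), and the elongation factor Eef1a1 from 7975, 8087, 10230 and 9396 to 1716, 1547, 1496 and 1169 CPM (change -2.59 ± 0.17). Mitochondrial ribosomal proteins fell in 52 of 77 cases and rose in 6 (median -0.56), and without the 2 libraries with opposite titles 35 fell and 2 rose. Mrpl45 changed most upwards, at 78.1, 84.3, 83.5 and 83.6 CPM before and 154, 165, 149.5 and 177 CPM after stimulation. Processed pseudogenes, many of which are copies of ribosomal protein genes, fell in 316 (20.4%) and rose in 141 (9.1%) of 1550 cases. Both shares were below those of all tested genes, of which 25.7% fell and 26.2% rose.

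**Figure D4:**
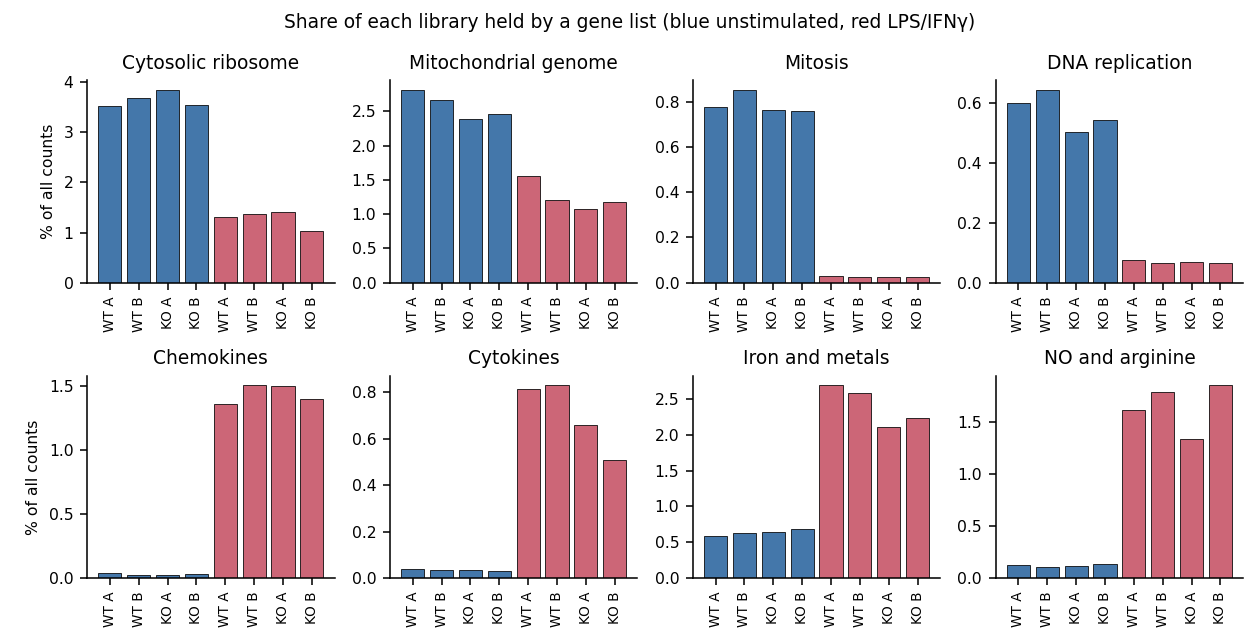
Bars show the percentage of all counts of a library that fell on the genes of a list, for each of the 8 libraries, with axes from 0. Ribosomal, mitochondrial, mitosis and replication lists are lower in all 4 stimulated libraries, and chemokine, cytokine, iron and nitric oxide lists are higher in all 4.

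Genes of cell division fell nearly without exception. All 40 mitosis genes and 38 of 39 replication genes fell, with medians of -6.23 and -3.76, and the states did not overlap for any of the genes that fell. As a share of counts, mitosis genes went from 0.789% ± 0.043 to 0.0258% ± 0.0025 and replication genes from 0.571% ± 0.062 to 0.0687% ± 0.0050 (SD, n = 4). Ccnb1 went from 188, 245, 192 and 206 to 1.12, 0.113, 1.14 and 0.251 CPM (change -8.37 ± 0.40, adjusted p = 1.9e-07), Cdk1, its kinase, from 147, 168, 133 and 142 to 4.68, 2.31, 3.75 and 2.95 CPM, and Plk1, a kinase of mitotic entry, from 101, 121, 119 and 114 to 0.521, 0.675, 1.14 and 0.628 CPM (change -7.25 ± 0.18). Top2a, which disentangles chromosomes, fell by 6.51 ± 0.32 on the log2 scale, and Bub3 least, by 1.15 ± 0.10. Mcm5 went from 403, 466, 339.7 and 345 to 17.6, 11.4, 11.7 and 10.2 CPM (change -4.94 ± 0.15, adjusted p = 2e-08), Mcm10 and Mcm6 fell by 6.61 ± 0.34 and 6.25 ± 0.34, and Rrm2, which supplies deoxynucleotides, fell by 6.33 ± 0.32. Pcna, the sliding clamp, kept a higher level at 368, 361, 268 and 282 CPM before and 189.9, 149, 117 and 124 CPM after stimulation. Cdt1, a licensing factor, was the exception at 142, 166, 142 and 145 CPM before and 164, 164, 159 and 180.1 CPM after stimulation (change 0.17 ± 0.09, adjusted p = 0.16, or 0.02 with DESeq2). Cdt1 was also called with the size factors of DESeq2. Both lists gave the same counts without the 2 libraries with opposite titles.

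Regulators of the cycle fell in 20 and rose in 3 of 25 cases. E2f7 and E2f8, the atypical repressors, fell by 7.71 ± 0.41 and 7.16 ± 0.30, E2f2 by 4.95 ± 0.18 and E2f1 by 1.65 ± 0.11, with E2f1 at 58.4, 64.0, 53.3 and 52.8 CPM before and 19.0, 16.4, 18.1 and 19.1 CPM after stimulation. Foxm1, the activator of mitotic genes, went from 155, 162, 144 and 133 to 4.02, 5.07, 4.49 and 4.39 CPM (change -5.04 ± 0.11), and Ccne2, an S-phase cyclin, fell by 4.80 ± 0.28. The risers were Cdk6, a kinase of early cell cycle, Cdkn1a and Myc. Cdkn1a, the inhibitor p21, rose from 78.1, 138, 158 and 153 to 1072, 1365, 1197 and 896 CPM (change 3.12 ± 0.24), and Myc, which drives growth and division in many cells, from 4.65, 1.57, 2.67 and 1.91 to 109, 136, 148 and 216 CPM (change 5.90 ± 0.36). Ccnd1 was at 351, 385, 530.3 and 539.5 CPM before and 508, 199, 169 and 328 CPM after stimulation (adjusted p = 0.17, or 0.046 with the replicate letter within genotype as a block and 0.003 without stimulated wildtype A). Ccnd1 was also called with no count filter. Of 20 genes on the p53 list, which held p53 targets and Trp53 itself, 14 rose and 2 fell (median 1.08). Among the risers were Mdm2, the ligase that limits p53, from 72.6, 81.4, 107 and 102 to 749, 657, 680.0 and 639 CPM, Fas by 4.15 ± 0.22, Plk2 by 3.81 ± 0.23 and Ccng1 by 1.30 ± 0.19. Sesn1 fell by 2.32 ± 0.21, and Trp53, which encodes p53, also fell (change -0.59, adjusted p = 0.00075).

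Over 965 transcription factors of all families, 311 (32.2%) rose and 256 (26.5%) fell, with a median of 0.02. Over all protein-coding genes these shares were 31.9% and 31.1%. The E2F family had 0 risers and 9 of 10 fallers (median -1.89), with Tfdp2, a dimer partner, down by 3.92 ± 0.19. The bZIP family had 29 of 48 risers and 7 fallers (median 0.85), including Fosl1 (4.16 ± 0.22), Junb (2.27 ± 0.14) and Cebpb (2.15 ± 0.12). Of 9 IRF genes 6 rose and 1 fell, of 6 STAT genes 4 rose, and of 10 Rel homology genes 6 rose and 3 fell. HMG box genes fell in 13 of 24 cases and rose in 5, with the chromatin proteins Hmgb2 and Hmgb3 down by 3.63 ± 0.14 and 4.64 ± 0.27. Of 55 homeobox genes, 8 rose and 18 fell. Among 22 factors of myeloid lineage and activation, 13 rose and 4 fell. Spi1, the macrophage lineage factor PU.1, rose from 162, 166, 147 and 138 to 427, 434, 345 and 426 CPM, Klf6 rose by 3.45 ± 0.15, and Id3 fell from 36.0, 51.1, 38.8 and 35.4 to 5.65, 11.0, 16.7 and 8.04 CPM.

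Markers of macrophages themselves moved. Of 14 tested, 10 rose, 1 fell and 3 were not called (median 1.50). Itgam, the integrin CD11b, went from 11.3, 18.2, 1.81 and 4.11 to 404, 413, 95.4 and 134 CPM (change 4.96 ± 0.26), with KO libraries below wildtype ones in each state. Adgre1, or F4/80, went from 191, 172, 187 and 139 to 423, 378, 374 and 700.4 CPM (change 1.43 ± 0.21), and Lyz2, lysozyme, from 1752, 2164, 1263 and 1080 to 7101, 6651, 1611 and 4682 CPM. Csf1r, the receptor for the growth factor CSF-1, was the decrease, from 1221, 1286, 769 and 812 to 682, 659, 303 and 291 CPM (change -1.16 ± 0.12). Cd68 was at 580.3, 592, 730.4 and 682 CPM before and 749, 488, 439.6 and 489 CPM after stimulation (adjusted p = 0.24, or 0.013 without stimulated wildtype A). The marker lists of other cells stayed low with 1 exception. Summed over each list, fibroblast markers came to 0 to 0.172 CPM in unstimulated and 0.901 to 3.87 CPM in stimulated libraries (2 of 4 tested rose, Dcn and Lum), lymphocyte markers to 0 to 0.215 and 0.251 to 1.47 CPM (2 of 3 rose, and 0 without the 2 libraries with opposite titles), and dendritic cell markers to 7.13 to 14.4 and 11.5 to 47.0 CPM (4 of 6 rose and 1 fell). Neutrophil markers summed to 0.581 to 0.968 CPM in unstimulated and 121 to 420 CPM in stimulated libraries, nearly all of it S100a8, a calgranulin also made by stimulated macrophages, at 0, 0.494, 0.157 and 0.383 CPM before and 121, 144, 246 and 419 CPM after stimulation. Of 5 tested neutrophil markers 2 rose and 1 fell (1 and 0 without the 2 libraries with opposite titles), and Ly6g, a defining one, was at most 0.113 CPM. The part of these lists in other changes was not tested.

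Lysosomal genes and V-ATPase subunits rose in 24 and fell in 9 of 42 cases (median 0.51). Atp6v0c, a proton channel subunit, went from 75.9, 90.0, 82.2 and 82.9 to 289, 284, 269 and 304 CPM, and Ctsl and Ctsd, cathepsins, rose by 1.55 ± 0.19 and 1.35 ± 0.22, while Ctsc fell by 2.04 ± 0.28 and Lamp1 was at 817, 979.5, 882 and 893 CPM before and 855, 847, 752 and 835 CPM after stimulation. Of 20 scavenger and clearance receptors and their ligands 8 rose and 4 fell, with Cd36 from 0, 0.0645, 0 and 0 to 12.8, 28.2, 4.29 and 19.6 CPM, Msr1 up by 2.28 ± 0.26 and Gas6, a bridge to apoptotic cells, down by 2.04 ± 0.54. Of 17 Fc receptor and complement genes 11 rose and 2 fell (11 and 1 without the 2 libraries with opposite titles). Fcgr4 went from 3.49, 2.19, 4.32 and 2.54 to 221, 149, 174 and 223 CPM (change 6.01 ± 0.24), C3 rose by 2.23 ± 0.28, and Fcgr2b, the inhibitory receptor, was at 34.3, 48.0, 26.4 and 36.4 CPM before and 39.2, 8.33, 13.1 and 15.5 CPM after stimulation (adjusted p = 0.057, or 0.013 with the replicate letter within genotype as a block, 0.034 with DESeq2 and 0.00089 without stimulated wildtype A). Fcgr2b was also called with no count filter. Of 13 matrix proteases and their inhibitors 9 rose and 1 fell, or 2 with the replicate letter within genotype as a block (median 5.05, or 4.38 at the bound). Mmp9 went from 3.41, 5.31, 1.89 and 4.45 to 188, 324, 114 and 1026 CPM, and Mmp13 appeared from 0 at 5.88, 12.0, 19.0 and 41.9 CPM (at least 679-fold). Of 17 osteoclast genes 10 rose and 5 fell (6 and 3 without the 2 libraries with opposite titles), with Acp5, the defining phosphatase, not called (3.85, 0.150, 2.44 and 1.74 CPM before and 1.49, 0.619, 4.15 and 7.47 CPM after stimulation), although it was called without unstimulated wildtype A (adjusted p = 0.0093). Of 11 tested genes of alternative activation 6 rose and 2 fell (6 and 1 without the 2 libraries with opposite titles), while Chil3 had 0 counts in all libraries and Retnla at most 0.0670 CPM. Clec10a, a lectin of that state, fell from 10.1, 8.88, 1.96 and 3.10 to 1.86, 1.24, 0 and 0.314 CPM. Hypoxia-related genes rose in 8 and fell in 3 of 16 cases. Vegfa went from 73.7, 78.4, 92.0 and 90.6 to 322, 832, 317 and 507 CPM, and Hif1a fell from 1014, 1013, 788 and 789.9 to 260.0, 244, 261 and 258 CPM (change -1.81 ± 0.11).

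Of 2976 long noncoding RNA genes, 536 (18.0%) rose and 369 (12.4%) fell, against 31.9% and 31.1% of protein-coding genes. The strongest increases, from 0 counts in all unstimulated libraries, were in Gm14275, at 16.6, 70.1, 22.9 and 12.9 CPM (at least 1101-fold), U90926, at 1.12, 18.4, 27.5 and 14.4 CPM (at least 537-fold), Gm41386, 1700003M07Rik and Gm30873. D430036J16Rik fell from 17.4, 15.2, 21.5 and 13.6 to 0.149, 0.113, 0.0670 and 0.251 CPM (change -6.81 ± 0.33), and Gm20619, 2810429I04Rik, Gm5086 and Gm20667 were the other strong decreases. Gm20619 and Gm5086 were lower in unstimulated KO than in unstimulated wildtype cells. Of 121 miRNA gene entries of the table, 17 rose and 4 fell, but libraries of this kind do not measure mature miRNAs.

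The response was then fitted in each genotype. Wildtype cells had 7377 called genes (37.7%), 3624 up and 3753 down, and KO cells 7675 (39.2%), 3871 up and 3804 down, each on 2 against 2 libraries. The same direction was called in both for 6132 genes, 83.1% of wildtype calls and 79.9% of KO calls, and opposite directions for 5. A further 1689 genes were called over both genotypes but in neither alone. Across the 9580 genes with a mean log2 CPM over 3, changes in the genotypes had a Pearson r of 0.968 and a median absolute difference of 0.20, and r was 0.785 over all tested genes. These are descriptions across genes, which are not independent replicates, and the control libraries were separate.

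The difference between the responses was called for 4 genes (0.0204%), against 1079 at an unadjusted p under 0.05 and 90 with DESeq2. Serinc3, a membrane protein of the serine incorporator family, was at 1217, 1056, 99.5 and 102 CPM before and 301, 336, 184 and 206 CPM after stimulation, so that it fell in wildtype (change -1.83) and rose in KO cells (change 0.95), and the difference was 2.79 (adjusted p = 0.0092). Pdia4 and Sdf2l1, both of protein folding in the endoplasmic reticulum, went from 118, 126, 376 and 349 to 68.7, 87.7, 56.7 and 60.0 CPM and from 101, 99.4, 336 and 277 to 51.7, 59.9, 45.8 and 42.6 CPM, with differences of -2.00 and -1.95 (adjusted p = 0.036 each). Aldh1l2, a mitochondrial folate enzyme, was at 7.41, 9.61, 47.9 and 47.8 CPM before and 5.06, 6.36, 3.08 and 4.02 CPM after stimulation (difference -3.17, adjusted p = 0.036). For all 4 genes the genotypes were furthest apart in unstimulated cells and closer after stimulation. Over 12 alternatives Serinc3 was called in 7, Aldh1l2 in 4 and Pdia4 and Sdf2l1 in 3 each. Leaving out any single library other than stimulated wildtype A (14 calls) left 0 calls or 1, and the replicate block within genotype gave 57. List medians in wildtype and KO cells were 8.26 and 10.3 for interferon-induced GTPases, 4.75 and 5.23 for cytokines, -0.87 and -1.08 for the TCA cycle and -6.02 and -6.53 for mitosis, and their differences were not tested. The stress response list had 14 up and 5 down in wildtype and 12 up and 11 down in KO cells, and this difference was not tested as such.

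**Figure D5:**
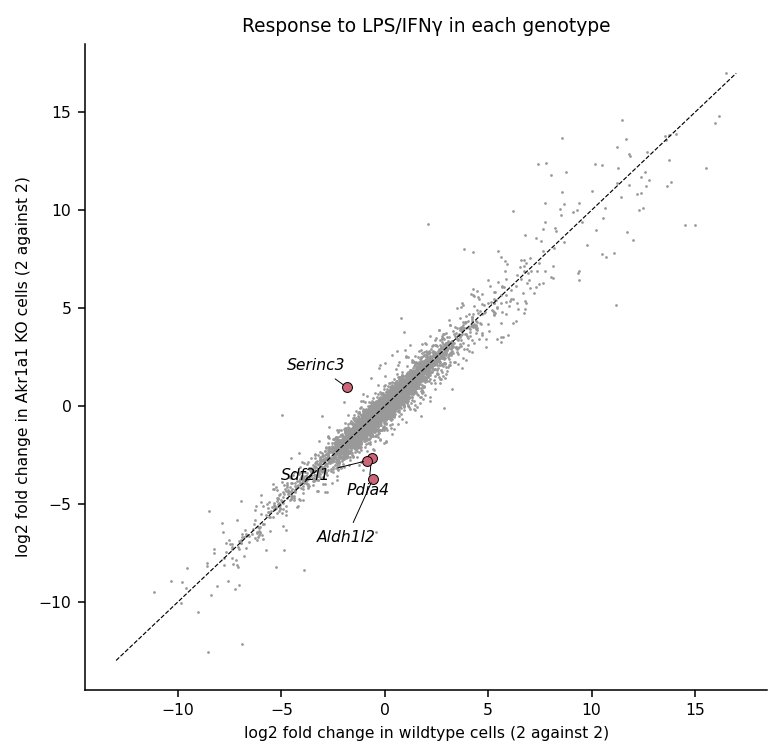
Each point is a gene with a mean over 8 CPM, with its log2 fold change on stimulation in wildtype cells (horizontal) and Akr1a1 KO cells (vertical), each from 2 against 2 libraries, and the dashed line marks equal changes. Most genes lie near the line, and Serinc3, Pdia4, Sdf2l1 and Aldh1l2, for which the difference was called, are marked in red.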

How the data were processed

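RNA from 8 cultures of RAW264.7 cells was sequenced by the authors on an Illumina platform. Reads with adaptors, undetermined bases or low quality were removed and the rest were aligned with STAR to mm10, per the study's methods and the submitters' processing notes, which also name CASAVA. The deposited gene counts are whole reads per gene, and no version was given in the sources used here. Gene positions are not printed, because of 52073 gene IDs shared with a GRCm38 annotation only 2.85% had the same start. Whether counting used strand was not given in the sources used here, and genes that overlap or have near-identical copies are uncertain.

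Counts were fitted with edgeR 4.0.16 (TMM, quasi-likelihood test, genotype as covariate) in R 4.3.3 for genes with at least 10 counts in total, tested on simulated data first. Group means gave the response in each genotype and the difference. Folds given as "at least" use a floor of 3 counts for genes with 0 counts in a state. List medians given at the bound use the same floor for these genes. For genes with 1 to 3 counts in a state they use the lower end of the 95% Poisson interval. The other log2 changes and medians are fitted values, which are no bounds for such genes, and intervals cover counting error only. Alternatives were DESeq2 1.42.0, its size factors, other filters, protein-coding genes alone, other designs, a fold limit of 2 (log2 of 1), and leaving out libraries. The replicate letter was checked as a pairing: deviations of libraries with the same letter correlated at 0.438 in wildtype and 0.103 in KO cells over 9177 genes. Both were over the limit of 0.1 used here, in KO cells barely, so the letter was treated as a possible pairing. The main fit, which gave the changes, SE and adjusted p above, left the letter out. The fit with it as a block is given where it changed a call. The labels do not say what a letter shares, and if replicates of a state were not separate cultures the p-values measure technical spread.

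The members and the 49 gene lists (1271 symbols, 19 without a row) were chosen with earlier results of these data known. Genes named were the 10 largest changes each way under the limits given, the key, highest and lowest members of each list, the 5 largest noncoding changes each way, the genes with the highest CPM, genes near 0 in a state, genes whose response differed and Akr1a1. A set of further examples (such as Cdk6, Irak1, Tab1, Ikbkb and Ptprc), the Gbp2 promoter and the narrower ribosomal list were added after their values were seen. Promoters are RefSeq sequences of GRCm38.p6, and Nos2 had no entry. A few genes of the lists are counted but not reported by name here.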

Additional observations from a re-analysis of the deposited data

Results flagged for a closer look

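The responses of Serinc3 (difference of KO minus wildtype 2.79), Pdia4 (-2.00), Sdf2l1 (-1.95) and Aldh1l2 (-3.17) differed between genotypes by the test of the difference itself, as given above, and for all 4 the unstimulated libraries of the genotypes were furthest apart.

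In 35 of 527 groups of 4 libraries of a state, 1 library stood apart from the other 3 by Dixon's criterion, where chance alone gives about 1 in 20, and each group mixed 2 wildtype with 2 KO libraries. Stimulated wildtype B stood apart for 9 genes. It was high for Ifngr1 at 36.1 CPM (26.1 to 27.3 CPM in the others), Ccr2, a chemokine receptor, at 34.1 CPM, Ldha at 2972 CPM, Hspa5 at 1554 CPM, Ccl22 at 231 CPM and Mt1, a metallothionein, at 291 CPM. It was low for Hmox1 at 1161 CPM (2036 to 2131 CPM in the others), Hif1a at 244 CPM and E2f2 at 0.901 CPM. Stimulated wildtype A stood apart for 7 genes, high for Scd1 at 12.6 CPM (0.536 to 1.52 CPM in the others), Idh2 at 15.6 CPM, Pfkm at 8.18 CPM, Abcg1, a sterol transporter, at 109 CPM, Cd68 at 749 CPM and Aif1 at 17.4 CPM, and low for Sqstm1 at 1438 CPM.

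Unstimulated wildtype B stood apart for 6 genes: Gapdh at 221 CPM (36.6 to 43.3 CPM in the others), mt-Co1 at 5537 CPM (9643 to 10242 CPM in the others), Cd40 at 2.37 CPM, Cdt1 at 166 CPM, Top2a at 891 CPM and Tgm2 at 5.78 CPM. Unstimulated wildtype A stood apart for 4 genes, low for Ccng1 at 107 CPM, Mrpl45 at 78.1 CPM and Prdx1 at 436 CPM and high for Mylip, a ligase that degrades the LDL receptor, at 21.1 CPM. Stimulated KO A stood apart for Spi1 at 345 CPM, which was low, and for Plk2 at 3190 CPM, 1700003M07Rik at 12.1 CPM and Rn18s-rs5, a ribosomal RNA sequence, at 6436 CPM, which were high. Stimulated KO B was high for Adgre1 at 700.4 CPM and Ctsl at 1093 CPM and low for Apex1 at 3.27 CPM. Unstimulated KO libraries stood apart for Ccl2 at 6.85 CPM (replicate B) and Atp6v0d2, a V-ATPase subunit, at 10.9 CPM (replicate A).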

How the results depend on the processing

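With a limit of 2-fold 6222 genes changed, and without the 2 libraries with opposite titles 3830 rose and 3662 fell, and the count reached 10243 with no count filter. Leaving out 1 library gave 8964 to 9989 changed genes, 4535 to 5167 that rose, 4429 to 4822 that fell, 5220 to 7187 changed in wildtype and 5267 to 8394 in KO cells. The count of genes whose response differed between genotypes was the least stable: 90 with DESeq2, 2 with its size factors, 1 with a stricter count filter, 57 with the replicate block within genotype and 0 to 14 on leaving out 1 library. The cause was not tested. For the named genes, 5881 values under alternatives held 5665 that kept their direction and their side of the threshold, 163 that lost the call, 41 that gained it, 12 other moves and 0 reversals. The replicate block within genotype gave 10239 changed genes, of which 9783 were shared with the fit without it and had the same sign. It changed the calls of Akr1a1, Ccnd1, Fcgr2b, Ldha and Ptprc, of the 330 named genes tested, and no other. The replicate block shared by both genotypes, with 4989 genes that rose and 4922 that fell, changed the call of Ifitm3 and no other named gene (adjusted p = 0.051). The block within genotype moved list counts by over 1.5 times for S-nitrosothiol enzymes that rose (1 to 3), the narrower ribosomal list that rose (1 to 2), MHC class II genes that fell (1 to 3) and matrix proteases that fell (1 to 2). The median of all genes, -0.003, lay between -0.018 and 0.102 under the alternatives (0.102 without the 2 libraries with opposite titles) and the share of calls that rose lay between 49.4% and 53.5%. All fits were scaled with TMM or the size factors of DESeq2, which take most genes as unchanged. These values therefore do not test whether rises and falls balance. With 2 libraries a group, differences between genotypes of modest size could be missed.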

Other observations

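Stimulated libraries agreed for most induced genes and diverged widely for a few. Among 2953 genes that rose and had a mean of at least 20 CPM in stimulated cells, the median range of log2 CPM over the 4 stimulated libraries was 0.41, and 33 genes had a range over 3. Wildtype A was the lowest library for 20 of these 33 genes, wildtype B for 7, KO A for 6 and KO B for none. Vegfc, a lymphangiogenic growth factor, was at 0.446 CPM in wildtype A and at 130, 100 and 79.2 CPM in wildtype B, KO A and KO B. Cxcl16, a transmembrane chemokine, was at 0.669 CPM in wildtype A and at 65.3, 47.0 and 33.6 CPM in the others. Cxcl16 was lowest in wildtype A before stimulation too, at 0.508 CPM against 6.77, 5.50 and 3.37 CPM. Il12b, Ccl22, Mmp12, a macrophage elastase, and Tnfsf15, a TNF family ligand, were likewise lowest in wildtype A, with Mmp12 at 29.4, 831, 387 and 638 CPM and Tnfsf15 at 6.84, 293, 40.3 and 23.1 CPM in the order used above. Ccl7 and Ccl2 had the opposite order between the wildtype clones, with 576 and 2.76 CPM for Ccl7.

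A second kind of gene separated by genotype. Plpp3, a lipid phosphatase, was at 81.0 and 63.1 CPM in stimulated wildtype and at 0.402 and 0.440 CPM in stimulated KO libraries. Dst, a cytoskeletal linker, was at 199 CPM in both stimulated wildtype and at 3.75 and 9.23 CPM in stimulated KO libraries. Rhob, a small GTPase, was at 48.6 CPM in both stimulated wildtype and 1.74 and 3.45 CPM in stimulated KO libraries. The genotypes were already apart before stimulation. Unstimulated libraries held Plpp3 at 9.08, 6.97, 0 and 0.139 CPM, Dst at 70.8, 141, 0.785 and 0.313 CPM and Rhob at 3.05, 5.33, 0.157 and 0.0348 CPM. Fitted changes in wildtype and KO cells were 3.18 and 2.09 for Plpp3, 0.91 and 3.76 for Dst and 3.50 and 5.03 for Rhob. Sprr2i went the other way, from 0 counts in all unstimulated libraries to 0.744 and 3.66 CPM in stimulated wildtype and 118 and 42.1 CPM in stimulated KO libraries. Pde8a was also higher in KO libraries, from 1.38, 0.989, 36.8 and 26.7 to 6.47, 7.32, 97.9 and 78.2 CPM. So were Il1a, at 8.255, 16.0, 133.5 and 50.5 CPM after stimulation, and Gm47015, at 0.2975, 1.295, 12.5 and 66.4 CPM. These genes were chosen for their spread, so no test is given.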
